A study of Mus musculus with 4 samples.

Results

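The complement system was examined in mouse mammary tumour cells through 8 of its genes, which encode a protease of the classical pathway (C1s), the inhibitor of that protease (Serping1), the components C4b, C2 and C3, the alternative pathway protease factor B (Cfb), and the regulators factor I (Cfi) and decay accelerating factor (Cd55). They were taken by gene name from the non-control probes of an Agilent mouse array, which gave 10 probes among 39429 for 8 genes among 31896 names. C3 and Serping1 had a pair of probes each and the other genes 1. Where a gene had a pair, the brighter probe stood for it.

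MMTV-Neu mice, whose Neu oncogene (Her2, gene Erbb2) is driven in the mammary epithelium by a mouse mammary tumour virus promoter, developed the tumours that gave the cells. The labels name 2 samples Pak1-/- and the other 2 Pak1+/+. All 4 carried the Neu transgene, were grown in low calcium medium with 5% horse serum, and received EGF for 15 min after 3 h without serum, so no sample shows the cells without EGF. Each group was drawn from different tumours according to the series design, while the methods speak of cell lines, and if the replicates shared an origin the p-values below measure only the spread between these samples. Total RNA was labelled with Cy3 and hybridized to 1 array per sample. The values below are log2 intensities after background correction and quantile normalization. A difference is always Pak1-/- minus Pak1+/+, and "past the threshold" means an adjusted p under 0.05 in limma over all 27229 probes tested.

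The median spot intensity was 322 to 331 on the 4 arrays, against 39.0 to 42.0 for the local background. The share of probes well above background ran from 62.2% on Pak1+/+ replicate 2 to 70.4% on Pak1-/- replicate 1, and the lowest value that counted as well above background from 6.55 to 7.03, which bears on the dim genes C1s, Hc and C9. The Pak1 probe showed no drop in the group labelled Pak1-/- (12.21 and 12.25, against 12.04 and 12.04; adjusted p = 0.070 in limma), so every direction here is given by the labels. The mouse Erbb2 probe was lower in that group (11.91 and 11.95, against 12.26 and 12.21), by -0.31 (adjusted p = 0.020 in limma). Whether this probe reads RNA of the transgene was not tested. The arrays labelled Pak1-/- lay at positions 1 and 2 of the slide and the others at positions 3 and 4, and position and genotype cannot be told apart.

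Complement is a cascade of plasma proteins that tags and lyses foreign or damaged cells. In the classical pathway C1q binds a target, its protease C1r activates C1s, and C1s cuts C4 and C2, whose fragments form an enzyme that cuts C3. In the alternative pathway factor B takes the place of C2 and factor D cuts it. The liver makes most of the plasma supply, but epithelial cells and macrophages also transcribe these genes, and several of them are known to respond to inflammatory cytokines.

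Of the 8 genes, C1s and Cd55 were higher and C2 and Cfb were lower in Pak1-/- cells, and the other 4 did not pass the threshold. This share was close to the background, since 51.0% of all genes tested by their brightest probe passed (22.8% higher and 28.2% lower). Over probes, 5 of the 9 tested passed, 2 higher and 3 lower, against 51.9% of all probes (23.3% higher and 28.6% lower). The groups did not overlap for 7 of those 9 probes, against 78.2% of all probes. C1s entered the test only through the group where it is high, and with all 4 arrays required to be well above background 3 of the genes passed. The median difference of the 8 genes was -0.21, beside -0.05 over all genes. Only C2 among the 8 both passed and differed at least 2-fold, which 12.5% of all probes did.

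**Figure D1:**
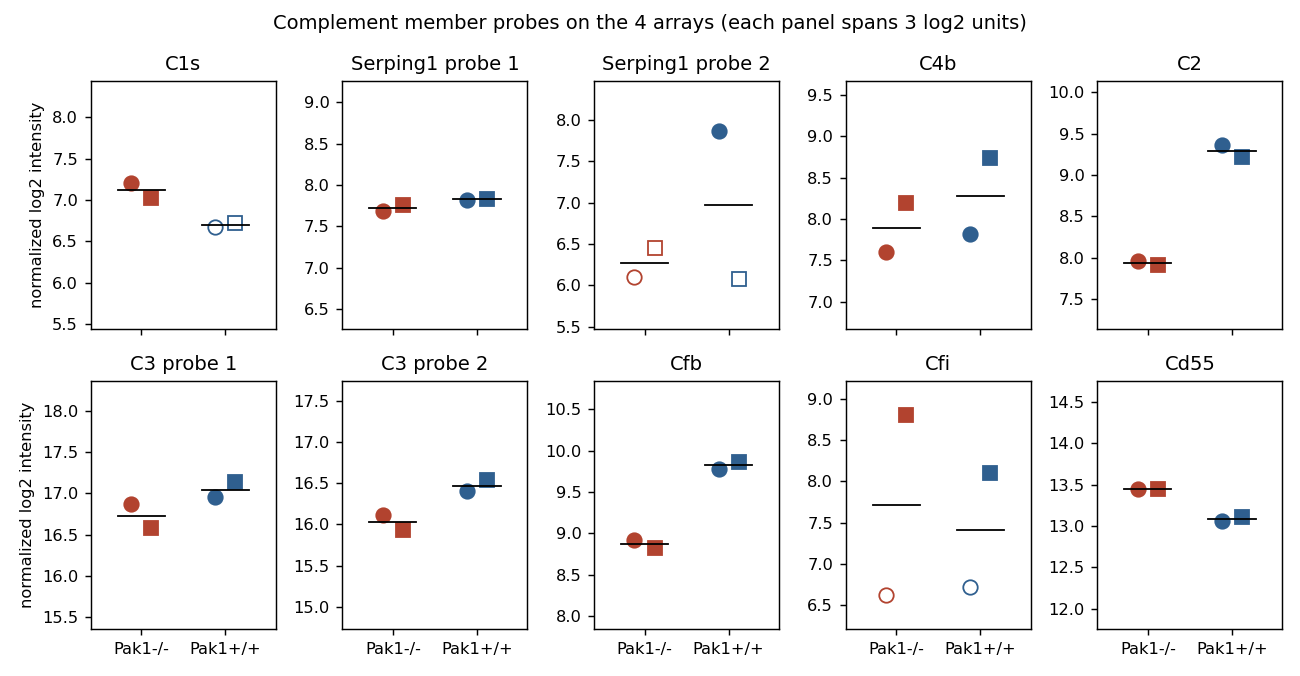
Normalized log2 intensity (vertical axes, each spanning 3 log2 units) of the 10 probes on the 4 arrays, with circles for replicate 1, squares for replicate 2, open symbols for a signal not well above background, and lines at the group means. C2, Cfb and both C3 probes sat lower on both Pak1-/- arrays, Cd55 and C1s sat higher, and Cfi and C4b split by replicate number rather than by group.

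C2 is the component that, once cut, supplies the protease of the classical pathway C3 convertase. Its probe (mm9 chromosome 17, 34999575 to 34999634, minus strand) read 7.96 and 7.91 on the Pak1-/- arrays and 9.37 and 9.21 on the Pak1+/+ arrays. Both Pak1-/- values lay well under both Pak1+/+ values, and the arrays within a group differed by 0.06 and 0.16. The group means were 7.93 ± 0.04 and 9.29 ± 0.11 (SD, n = 2 each), a difference of -1.36 (SE 0.09, 95% confidence interval -1.58 to -1.13, adjusted p = 0.00058 in limma). C2 was thus 2.56-fold lower, a larger change than that of all but 7.31% of the probes tested. The call held under all 16 alternative settings, with values between -1.66 and -1.28.

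Cfb encodes factor B, the alternative pathway counterpart of C2 and its neighbour in the genome. In the RefSeq order of genes no protein-coding gene lay between them, and the probes were 5716 bases apart on mm9. The 60-base Cfb probe is shown because it spans 357 bases of chromosome 17 (34993502 to 34993858, minus strand), and so joins pieces that are apart in the genome and reads spliced RNA.
Cfb probe: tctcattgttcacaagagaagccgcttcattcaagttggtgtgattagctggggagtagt
It read 8.92 and 8.83 in Pak1-/- cells against 9.78 and 9.86 in Pak1+/+ cells. Again the groups were apart by far more than the arrays within them. The difference was -0.95 (SE 0.08, interval -1.15 to -0.75, adjusted p = 0.0011 in limma), or 1.93-fold lower. The call was kept in each of the 4 fits that left out a sample, with values of -0.99 to -0.90.

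The genes around C2, C4b and C3 were read as well. Of the 18 tested genes nearest to C2 on either side, members of the set aside, 5 were higher, 4 lower and 9 not past the threshold, with a median of 0.06 and a range of -1.10 to 1.01. Around C4b, in the same stretch of chromosome 17, the 18 nearest overlap those around C2. They gave 3 higher, 3 lower and 12 not past, with a median of 0.08. Around C3 the 20 nearest gave 2 higher, 7 lower and 11 not past, with a median of -0.14. These calls stand beside 22.8% higher and 28.2% lower over all genes.

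C3 is the protein on which all complement pathways converge. Its fragments coat targets, signal to phagocytes and start the terminal pathway. The array held a pair of C3 probes within the same stretch of chromosome 17 (mm9, minus strand), from 57343416 to 57343475 and from 57343678 to 57343737, and both are shown since they gave different calls.
C3 probe 1: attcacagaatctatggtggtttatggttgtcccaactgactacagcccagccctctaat
C3 probe 2: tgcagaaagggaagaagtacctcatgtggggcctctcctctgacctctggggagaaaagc
Probe 1, which stood for the gene, read 16.87 and 16.58 on the Pak1-/- arrays and 16.96 and 17.13 on the Pak1+/+ arrays. The groups did not overlap, but the lowest Pak1+/+ value was close to the highest Pak1-/- value. The difference of -0.32 (SE 0.13, interval -0.66 to 0.02) did not pass the threshold (adjusted p = 0.10 in limma). Probe 2 read 16.11 and 15.94 against 16.40 and 16.54, a difference of -0.44 (SE 0.10, interval -0.70 to -0.18), which did pass (adjusted p = 0.019 in limma, 1.36-fold lower).

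Neither C3 call was firm. Probe 1 passed when arrays were scaled to their 75th percentile in place of quantile normalization, with -0.59 on the processed signal and -0.57 after normexp (adjusted p = 0.029 and 0.014 in limma), and it fell to -0.17 without Pak1-/- replicate 2. Probe 2 no longer passed when replicate 2 of the Pak1-/- group (-0.36, adjusted p = 0.068 in limma) or of the Pak1+/+ group (-0.38, adjusted p = 0.086 in limma) was left out. The sign was negative for both probes under every alternative run.

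C3 probe 1 was printed at 10 places on each array, which gave a view of the error within an array. The spot values ran from 16.68 to 16.97 and from 16.36 to 16.69 on the Pak1-/- arrays, and from 16.75 to 17.04 and from 16.92 to 17.23 on the Pak1+/+ arrays. Their SD over places within an array was 0.10 to 0.12. The means of the replicate arrays differed by 0.29 and 0.18. At each of the 10 places both Pak1+/+ arrays were above both Pak1-/- arrays, though spots of 1 array share its RNA and are no replicates of a condition. The raw mean intensity was 102610 and 96719 in Pak1-/- cells against 140857 and 156081 in Pak1+/+ cells, over a local background of 38.8 to 44.4, and no spot of the 10 probes was saturated.

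**Figure D2:**
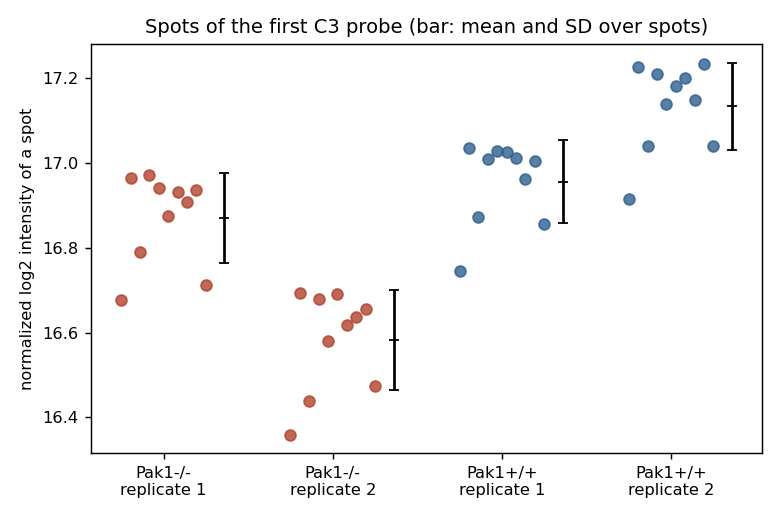
Normalized log2 intensity (vertical axis) of the 10 spots of C3 probe 1 on each of the 4 arrays, in order of their place on the array, with a bar for the mean and SD over spots. The spots of Pak1+/+ replicate 2 lay highest and those of Pak1-/- replicate 2 lowest, and the Pak1-/- replicate 1 spots shared much of their range with those of Pak1+/+ replicate 1.

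C4b supplies the fragment that binds C2 to a target surface. Its probe (chromosome 17, 34865328 to 34865387, minus strand) carries accessions of both C4b and its near copy C4a, which had no probe of its own, so the transcripts of C4b and C4a could not be told apart. It read 7.59 and 8.20 in Pak1-/- cells and 7.81 and 8.74 in Pak1+/+ cells. The groups overlapped, and on this probe both arrays numbered 2 exceeded both arrays numbered 1. The difference of -0.38 had an interval of -1.36 to 0.59 (SE 0.37, adjusted p = 0.43 in limma), and turned to 0.08 without Pak1+/+ replicate 2. A 2-fold drop and a small rise of C4b both lay within that interval.

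C1s is the protease of the C1 complex that cuts C4 and C2. Its probe (chromosome 6, 124480775 to 124480834, minus strand; the current symbol is C1s1) read 7.21 and 7.03 on the Pak1-/- arrays and 6.67 and 6.72 on the Pak1+/+ arrays. The signal was well above background on the first pair only, so the probe entered the test through the group where it is high. The fitted difference was 0.42 (SE 0.09, interval 0.19 to 0.66, adjusted p = 0.017 in limma), and as a bound C1s was at least 1.19-fold higher in Pak1-/- cells, measured against the lowest signal that counts as well above background. The call was lost without Pak1+/+ replicate 1 (0.40, adjusted p = 0.075 in limma) or replicate 2 (0.45, adjusted p = 0.058). The value was 0.73 without the offset and 1.09 on the processed signal scaled to the 75th percentile.

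Serping1 encodes C1 inhibitor, the serpin that blocks C1r and C1s. Its brighter probe (chromosome 2, 84605663 to 84605722, minus strand) read 7.69 and 7.76 in Pak1-/- cells and 7.82 and 7.83 in Pak1+/+ cells. The groups did not overlap but were close, with a difference of -0.10 (SE 0.07, interval -0.29 to 0.08, adjusted p = 0.28 in limma). The interval excludes a 2-fold change in either direction. The second probe (84605968 to 84607474, also minus strand) read 6.10 and 6.45 against 7.87 and 6.07, and only Pak1+/+ replicate 1 was well above background, so it was not tested.

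Cd55 is a membrane protein that takes C3 convertases apart and so shields the cell from its own complement. Its probe (chromosome 1, 132335716 to 132335775, minus strand) read 13.44 on both Pak1-/- arrays and 13.06 and 13.11 on the Pak1+/+ arrays. The replicates nearly coincided and the groups were apart. The difference was 0.36 (SE 0.07, interval 0.18 to 0.54, adjusted p = 0.012 in limma), or 1.28-fold higher. With 1 Pak1+/+ array left out the call was lost (0.33 and 0.38, adjusted p = 0.076 and 0.054 in limma, without replicate 1 and 2).

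Cfi encodes factor I, the plasma protease that inactivates C3b and C4b with the help of cofactors. Its probe (chromosome 3, 129578165 to 129578224, plus strand) read 6.63 and 8.80 in Pak1-/- cells and 6.72 and 8.10 in Pak1+/+ cells. It was well above background on replicate 2 of each group and on no other array, with raw intensities of 439 and 248 there against 83.8 and 97.8 on the arrays numbered 1. The difference between groups was 0.30 with an interval of -1.94 to 2.54 (SE 0.85, adjusted p = 0.79 in limma), and it became -0.79 with Pak1-/- replicate 2 left out and -0.39 with Pak1+/+ replicate 1 left out. Of 27215 probes with 4 values, only 5 had both arrays numbered 2 above both arrays numbered 1 by at least 1 log2 unit, Cfi among them with a gap of 1.38, and 6 showed the reverse. Beside Cfi these were Cdh5 (6.66 and 8.04, against 6.41 and 7.77), Tspyl5, 4932414N04Rik and a probe with no gene name, all named after their values were seen. Across all probes the differences between replicates 1 and 2 correlated at -0.028 between the groups. The labels do not say whether the numbers pair the samples.

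**Figure D3:**
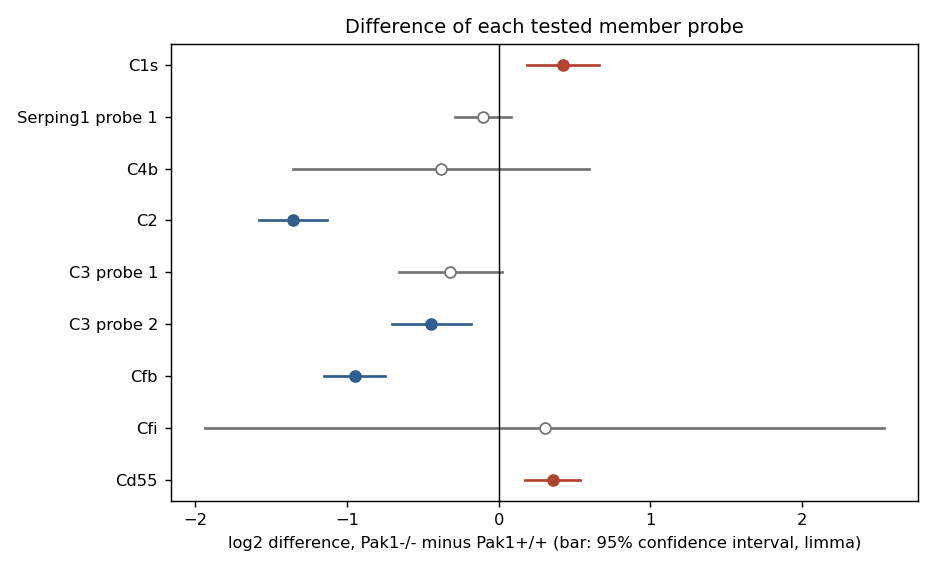
Log2 difference, Pak1-/- minus Pak1+/+ (horizontal axis), of the 9 probes tested, with bars for the 95% confidence interval from limma and filled symbols for probes past the threshold. C2 and Cfb lay farthest below 0, C1s and Cd55 above it, and the intervals of C4b and Cfi were wide enough to hold changes of 2-fold in the direction of each fitted value.

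The rest of the system was described with a list of 47 other complement genes grouped by role. Of these, 46 had a probe and 26 were tested, and 10 were higher, 2 lower and 14 not past the threshold in Pak1-/- cells, with a median of 0.17. That is 12 of 26, against 51.0% of all genes. The 10 higher and 2 lower stand beside 22.8% higher and 28.2% lower over all genes, as do the counts by role below. Where all 4 arrays had to be well above background, the count past the threshold was 10 in place of 12. The other 20 with a probe were not well above background on 2 arrays. C4a had no probe. C9 and Hc, counted among the 10 higher genes, entered the test through the Pak1-/- arrays alone, where they are high. Clu, also among the higher genes, was saturated on those arrays.

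Among recognition proteins and their proteases, 2 of the 6 tested were higher and none lower. C1ra, the protease that activates C1s, read 9.65 and 9.53 on the Pak1-/- arrays and 8.54 and 8.85 on the Pak1+/+ arrays. Both Pak1-/- values were above both Pak1+/+ values, by 0.89 (SE 0.13, adjusted p = 0.0052 in limma), and its second probe gave 0.94. C1rb, its close copy, differed by 0.54 (adjusted p = 0.0050 in limma), and probes of copies this alike may share signal. The other proteases tested, C1rl (-0.10), Masp1 (0.20) and Masp2 (0.05), did not pass.

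Among the components of the alternative and terminal pathways, 3 of the 7 tested were higher and none lower. C9 and Hc, among these 3, entered the test only through the group where they are high. The probes of C8g, a subunit of the terminal complex, gave different calls, with -0.14 on the brighter one (adjusted p = 0.17 in limma) and 0.54 on the other (adjusted p = 0.021). Cfp, or properdin, which stabilizes the alternative pathway convertase that factor B forms, read 11.62 and 11.42 in Pak1-/- cells against 10.79 and 10.72 in Pak1+/+ cells. The difference of 0.76 (SE 0.10, adjusted p = 0.0035 in limma) was opposite in sign to that of Cfb. Cfd, or factor D, which cuts factor B, read 6.40 and 7.52 in Pak1-/- cells, on either side of the Pak1+/+ values (mean 6.82 ± 0.26, SD, n = 2), and did not pass (0.15, adjusted p = 0.78 in limma). C9, the pore-forming protein of the terminal pathway, was not well above background in Pak1+/+ cells. Its fitted difference was 1.20 (adjusted p = 0.0070 in limma), and as a bound C9 was at least 1.57-fold higher in Pak1-/- cells. Hc, which encodes C5, was likewise dim in Pak1+/+ cells. Its fitted difference was 0.46 (adjusted p = 0.044 in limma), and as a bound Hc was at least 1.24-fold higher in Pak1-/- cells. The Hc call was lost in 8 of 15 alternatives. These included both 75th percentile scalings, with 1.36 on the processed signal and 0.44 after normexp (adjusted p = 0.051 and 0.080 in limma). They also included no filter on dim probes (0.46, adjusted p = 0.075 in limma) and 3 of the 4 fits that left out a sample. Those fits gave 0.28 without Pak1-/- replicate 1 and 0.49 and 0.43 without Pak1+/+ replicate 1 and 2.

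Among regulators, Cd55 was set beside the other membrane proteins that protect a cell from complement. Of the 4 tested, 2 were higher and none lower. Cd59a, which blocks the membrane attack complex, read 13.90 and 13.95 in Pak1-/- cells and 13.15 and 13.20 in Pak1+/+ cells, a difference of 0.75 (SE 0.07, adjusted p = 0.0015 in limma). Susd4, a membrane protein with complement control domains, read 13.24 and 12.90 against 10.11 and 10.18. With a difference of 2.93 (SE 0.13, adjusted p = 0.00025 in limma), it was 7.60-fold higher. Daf2, a near copy of Cd55, did not pass on either of its probes (0.14 and 0.31, adjusted p = 0.17 and 0.29 in limma). Cr1l, or Crry, the rodent cofactor for factor I on the cell surface, read 14.06 and 14.14 against 14.23 and 14.31 and did not pass (-0.17, adjusted p = 0.13 in limma). Cd46, another cofactor of factor I, gave no signal well above background.

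Of 6 soluble regulators only Clu, or clusterin, which holds back the terminal pathway, was tested. It was saturated on both Pak1-/- arrays and read 18.49 and 18.67 on the Pak1+/+ arrays, so only a bound was measured and its fitted p rests on a ceiling with no spread in 1 group. With the saturated spots at their value the difference was 0.52 (adjusted p = 0.0086 in limma), and it moved with the scaling, to 0.40 under either 75th percentile scaling and 0.72 under cyclic loess. On the processed signal the call was lost (adjusted p = 0.055 in limma).

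Among receptors, 2 of the 8 tested were higher and 2 lower. C5ar2, a receptor for the C5a fragment that the array names Gpr77, read 11.13 and 10.66 in Pak1-/- cells and 9.32 and 9.48 in Pak1+/+ cells. Its difference was 1.49 (SE 0.18, adjusted p = 0.0029 in limma), and a second probe gave 1.35. Cd93, a C1q receptor candidate found on endothelial and myeloid cells, was the other one higher (0.99, adjusted p = 0.0015 in limma). Itgb2, the beta chain of the leukocyte complement receptors, was 1.99-fold lower (adjusted p = 0.0017 in limma). Its partner chain Itgam did not pass on its brightest probe (0.49, adjusted p = 0.11 in limma), which read 15.20 to 16.07. Its other probes gave 0.56 and -0.20 and were far dimmer, at 7.35 to 8.23. Also lower was C1qbp, a mitochondrial protein that also binds C1q (-0.97, adjusted p = 0.00081 in limma). C3ar1, the receptor for the C3a fragment, did not pass (0.23, adjusted p = 0.12 in limma), and C5ar1 gave no signal well above background on the 4 arrays.

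**Figure D4:**
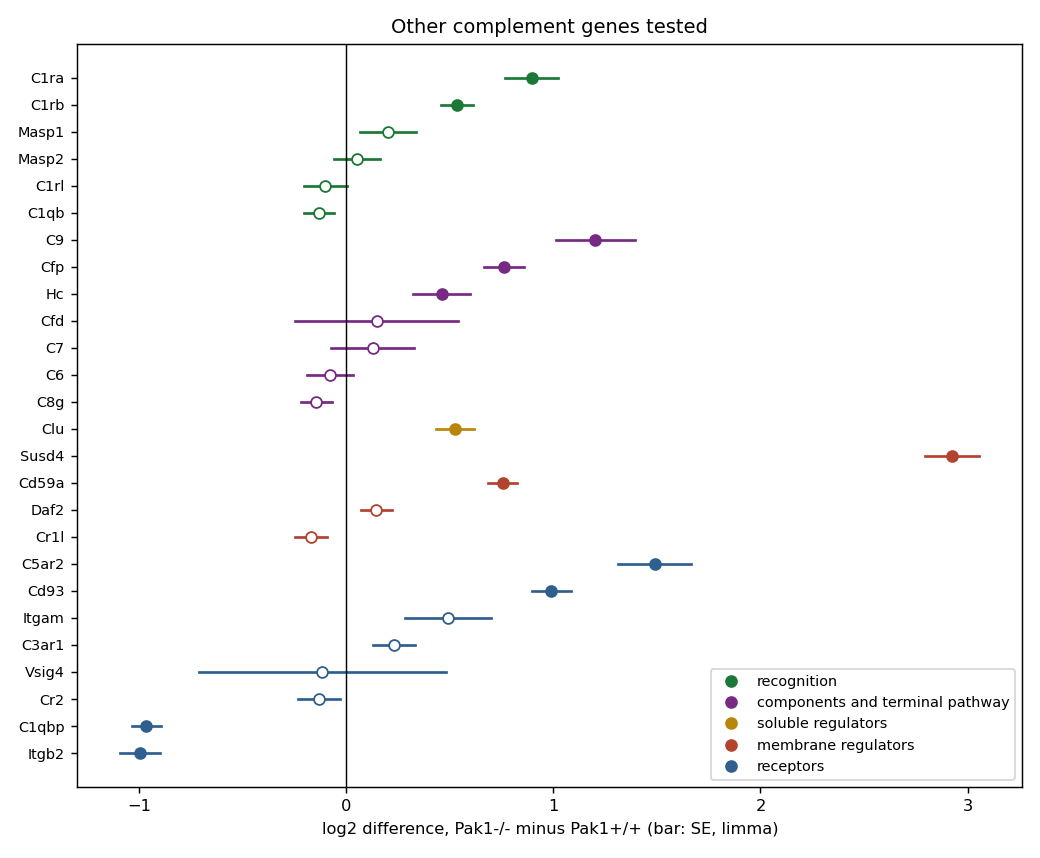
Log2 difference, Pak1-/- minus Pak1+/+ (horizontal axis), of the 26 other complement genes tested, with bars for the SE from limma, colours for the role and filled symbols for genes past the threshold. Susd4 and C5ar2 lay at 2.93 and 1.49, and 10 of the 12 filled symbols lay above 0. The points of C9 and Hc (dim in Pak1+/+ cells) and of Clu (saturated in Pak1-/- cells) are fitted values where only a bound was measured, so their order among the others cannot be read.

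Macrophages and fibroblasts also transcribe complement genes, so markers of other cells were read on the same arrays. In bulk RNA fewer cells of a type and less RNA per cell cannot be told apart. The counts of markers below stand beside 22.8% of all genes higher and 28.2% lower. Of 12 leukocyte markers 6 were tested, and 3 were lower and none higher in Pak1-/- cells. Cd14 led them with 15.50 and 15.72 against 17.35 and 17.25, followed by Adgre1 (-1.05) and Ptprc (-0.45). The summed linear signal of the list was 52625 to 60047 in Pak1-/- cells and 162509 to 172958 in Pak1+/+ cells. Nearly all of it was Cd14, without which the sums, taken after seeing the data, were 6106 to 6428 against 5570 to 6440 and overlapped. The other markers tested, Csf1r (0.12), Cd3e (0.25) and Cd68 (-0.20), did not pass, and Lyz2, Laptm5, Tyrobp and Cd3d gave no signal well above background. Of 8 fibroblast markers 3 were tested and 1 was higher (Col1a1, 1.12), while Col1a2 (0.03) and Pdgfra (-0.16) did not pass. The sum was 1375 to 1564 against 1213 to 1251, and without Col1a1 it was 903 to 928 against 969 to 989. Dcn, Lum, Col3a1 and Pdgfrb gave no signal well above background. The part of these cells in the complement results was not tested. All 8 epithelial markers were tested, and 3 were higher, among them Cdh1 (1.19), and 1 lower (Krt7, -1.10), with sums of 1156575 to 1166287 against 1052337 to 1075161. Of 5 endothelial markers 3 were tested and none passed.

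The RefSeq promoter table, built on GRCm38.p6 and so not comparable in position with the mm9 probes, held 3 of the 8 genes (C3, C1s and Cd55), each as a window of 300 bases around a start site. The C3 promoter (GRCm38.p6, chr17:57228087-57228386, minus strand) is shown because it holds 1 match, in capitals, to a C/EBP core (TTGCNNAA, searched on both strands), 45 bases before the start.
C3 promoter: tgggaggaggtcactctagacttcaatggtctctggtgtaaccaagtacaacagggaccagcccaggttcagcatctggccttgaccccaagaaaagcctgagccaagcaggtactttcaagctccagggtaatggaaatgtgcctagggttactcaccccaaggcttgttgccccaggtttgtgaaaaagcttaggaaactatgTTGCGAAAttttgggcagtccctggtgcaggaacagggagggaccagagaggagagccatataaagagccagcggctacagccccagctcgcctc
Of the 32851 promoters in the table, 10.8% held such a match. C1s had a pair of start sites in the table, and the window of 1 of them also held a match, at -242 from the start, while Cd55 had none. Cores of the interferon stimulated response element (in 3.44% of all promoters), of the GAS element (TTCNNNGAA, in 8.3%) and of the NF-kB site (in 1.47%) had no match in these windows. A match in this window is a description of the letters and not a binding site.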

How the data were processed

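The deposited scanner files, made by the authors with Feature Extraction 9.5.3.1 per the file headers, hold linear spot intensities (mean, local background median and processed signal) and flags, not normalized between arrays. A deposited table gives the authors' own log2 values for these arrays, described as normexp corrected and quantile normalized, and was used only as an alternative. Here limma 3.58.1 (R 4.3.3) applied normexp (offset 50) to all spots. Log2 values of the 43020 non-control spots were quantile normalized, spots with outlier flags were set aside, and the spots of a probe were averaged. A probe was kept where 2 or more arrays had it well above background (27229 of 39429, 69.1%). Groups were compared with lmFit and eBayes (genotype only, two-sided) and p-values adjusted by Benjamini-Hochberg over all probes kept. The offset shrinks differences of dim probes, and the 4 arrays limit precision. An exact permutation test of 2 against 2 cannot give a p below 0.333, so none was run. The script was tested on simulated data.

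Every gene of the set is named with every probe. Of the other complement genes, those past the threshold and changed at least 2-fold are named, with C1ra, C4a, Hc, Cfd, Cfp, Cd46, Cd59a, Cr1l, C3ar1 and C5ar1 whatever their values; 1 further gene of that rule is not reported here. C1rb, C1rl, Masp1, Masp2, C8g, Clu, Daf2, Cd93, Itgam, Itgb2, C1qbp, the markers and the probes that split by replicate number were named after their values were seen. The genes and all lists were chosen with earlier results of these data known. Neighbours and current symbols come from a RefSeq table (GRCm38.p6), matched by accession for 26055 of 32334 probes that have one. Where a probe was dim on both arrays of a group, the fold is a bound: the brighter group's mean against, per dim array, the higher of the probe's value and the lowest value well above background. Alternatives were other offsets, scalings, filters, thresholds, the deposited table, the mean over a gene's probes, a replicate block and leaving out each sample.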

Additional observations from a re-analysis of the deposited data

How the results depend on the processing

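C2 and Serping1 kept their direction and side of the threshold in all 16 alternatives. C3 crossed it with 75th percentile scaling (-0.59 on the processed signal, -0.57 after normexp) and with the mean over its probes (-0.38), and ranged from -0.46 to -0.17 when 1 sample was left out. C1s (0.42) and Cd55 (0.36) missed an adjusted p of 0.01 and the added 2-fold requirement, which Cfb (-0.95) also missed, and with 1 sample left out ranged from 0.33 to 0.51 and 0.33 to 0.38. C4b ranged from -0.85 to 0.08 (positive, 0.082, without Pak1+/+ replicate 2) and Cfi from -0.79 to 1.39 (negative, -0.79, without Pak1-/- replicate 2 and -0.39 without Pak1+/+ replicate 1). The cause of these changes was not tested, beyond fewer samples.

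At an adjusted p of 0.01 the counts were 2 probes and 2 genes of the set and 8878 probes in all. With the 2-fold requirement they were 1 probe, 1 gene, 3 other complement genes and 3413 probes in all. With 1 sample left out they were 2 to 5 probes, 2 to 4 genes, 11 to 14 other complement genes and 10307 to 12164 probes. Without Pak1+/+ replicate 1 the set had 3 probes and 2 genes past the threshold, and without Pak1+/+ replicate 2 it had 2 and 2. Cfi and C1s had no value where all 4 arrays had to be well above background.

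Replicate numbers are shared between the groups, and the labels do not say whether they pair the samples. The deviations correlated at -0.028 between the groups across probes, which cannot settle this. With the replicate block 13211 probes, 5 probes and 4 genes of the set, and 13 other complement genes passed. No call on the 8 genes changed (C4b adjusted p = 0.054 and Cfi 0.29 in limma). The SE of C4b was 0.12 with the block and 0.37 without it, and that of Cfi 0.21 and 0.85.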
